A study of Mus musculus with 12 samples.

Results

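Phosphate transporters of the plasma membrane were described in refed mouse liver as a set of 6 genes: the sodium-dependent importers Slc34a1, Slc34a2, Slc34a3, Slc20a1 and Slc20a2 and the exporter Xpr1. They were taken as the rows of the deposited value table whose annotated gene symbol is a member of this set. Each of the 6 genes had 1 probe set of its own, among 19938 genes measured in all. The set was chosen by the K289R minus WT log2 difference of Slc34a2 on these same arrays, so that difference is described here without a test. The other 5 were added as further phosphate transporters of the plasma membrane.

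The study measured liver RNA of 12 male mice of the C57BL/6J strain on Affymetrix gene arrays, with 1 array for each mouse. The 6 K289R mice carried a knock-in of Nr5a2, which encodes the nuclear receptor LRH-1, and the 6 WT mice carried the normal gene. In K289R a lysine of the receptor is replaced with an arginine, which removes an attachment site of the small protein SUMO. All mice of both groups had fasted for 24 h and eaten again for 6 h, and livers were taken at 8 am. The labels give neither an age nor whether the knock-in mice were homozygous. The question of the comparison is what the loss of this site does to liver transcripts after refeeding.

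Cells take up inorganic phosphate through sodium-coupled carriers of the SLC34 and SLC20 families and release it through XPR1. Slc34a1 and Slc34a3 are the carriers of the kidney proximal tubule, and Slc34a2 is known from small intestine, lung alveolar type 2 cells and other epithelia. Slc20a1 and Slc20a2 are expressed in most tissues, and both were known as receptors of retroviruses before their transport function was found. A liver that is refed needs phosphate for ATP, for the phosphorylation of glucose and for glycogen turnover.

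RefSeq gene starts on GRCm38.p6 are shown for Slc34a2 and its family member Slc34a1, to set the gene with the large difference beside a close relative whose log2 difference was -0.05. Each window runs from 250 bases before to 50 bases after an annotated transcript start and is read from the gene's strand. Capitals mark TATAAA or TATATA, letters of TATA-like elements, searched on both strands.

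Slc34a2: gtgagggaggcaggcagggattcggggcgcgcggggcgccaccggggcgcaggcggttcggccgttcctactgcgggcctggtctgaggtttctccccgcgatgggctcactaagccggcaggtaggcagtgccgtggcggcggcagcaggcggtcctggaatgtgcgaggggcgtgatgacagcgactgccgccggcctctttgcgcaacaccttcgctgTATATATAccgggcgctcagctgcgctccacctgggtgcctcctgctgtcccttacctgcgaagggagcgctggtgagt

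Slc34a1: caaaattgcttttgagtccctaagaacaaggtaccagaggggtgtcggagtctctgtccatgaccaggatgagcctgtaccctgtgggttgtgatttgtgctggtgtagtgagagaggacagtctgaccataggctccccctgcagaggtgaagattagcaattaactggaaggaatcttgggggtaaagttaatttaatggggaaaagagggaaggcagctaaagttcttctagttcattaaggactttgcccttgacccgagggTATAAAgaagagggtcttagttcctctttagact

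The Slc34a2 window lies at chr5:53049103-53049402 on the + strand, and the Slc34a1 window at chr13:55399398-55399697 on the + strand. In Slc34a2 a pair of overlapping TATATA matches covered bases -29 to -22 before the start, whereas the TATAAA of Slc34a1 stood at bases 17 to 22 after it. TATATA occurs in 5.67% and TATAAA in 13.6% of the 32851 RefSeq windows of this length. The Slc34a2 window had 68.7% G and C and 30 CpG dinucleotides, against 46.7% and 2 in Slc34a1 and a median of 52.7% and 7 over all windows. The window of Slc34a3 had 57.7% G and C and 2 CpG dinucleotides, and that of Xpr1 59.7% and 17. Slc20a1, with a log2 difference of -0.01, had a window at chr2:129198523-129198822 richer in both than Slc34a2, with 73.0% and 36. That window also held a TATAAA at bases -1 to 5. The other Slc20a1 window had 52.0% and 6. The letters CAAGGTCA and CAAGGCCA, forms of the element that LRH-1 binds, were searched on both strands and were in none of the 6 windows of the 5 transporter genes that had a window. They occur in 1.56% and 2.40% of all windows, so no match in 300 bases is the usual result.

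Marker genes showed liver in both groups. Summed intensities of the 8 hepatocyte markers ran from 31519 to 33918 in K289R and from 32745 to 34094 in WT, and none of them passed the test. Some arrays stood apart: the 13 measured pancreatic acinar markers reached sums of 7122 in mouse K289R 1 and 11252 in mouse K289R 3, while the other 4 K289R mice had 285 to 379 and WT mice 306 to 362. The 8 acute phase genes summed to 9055 on WT 1 and 10055 on WT 3, against 3704 to 4960 in K289R and 3522 to 4987 on the other 4 WT arrays. The 6 skeletal muscle markers summed to 676 on K289R 3 and 1548 on WT 1. Nr5a2 measured 324 ± 18.4 in K289R and 303 ± 27.1 in WT (SD, n = 6 each). Its probe set reads the amount of transcript and does not check the point mutation.

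Slc34a2 had the largest log2 difference of the 6 transporters, and its levels in the groups did not overlap. In K289R livers it measured 329, 195, 166, 144, 164 and 173 intensity units on arrays 1 to 6. In WT livers it measured 46.6, 80.8, 63.2, 86.2, 60.2 and 60.2 units. The lowest K289R mouse was therefore above the highest WT mouse. Means were 195 ± 67.6 in K289R and 66.2 ± 14.7 in WT (SD, n = 6 each). The difference of mean log2 values was 1.53 (SE 0.18), which is 2.89-fold higher in K289R. All WT values were above the median intensity of every array, 26.8 to 29.2, but the deposited table gives no detection call.

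**Figure D1:**
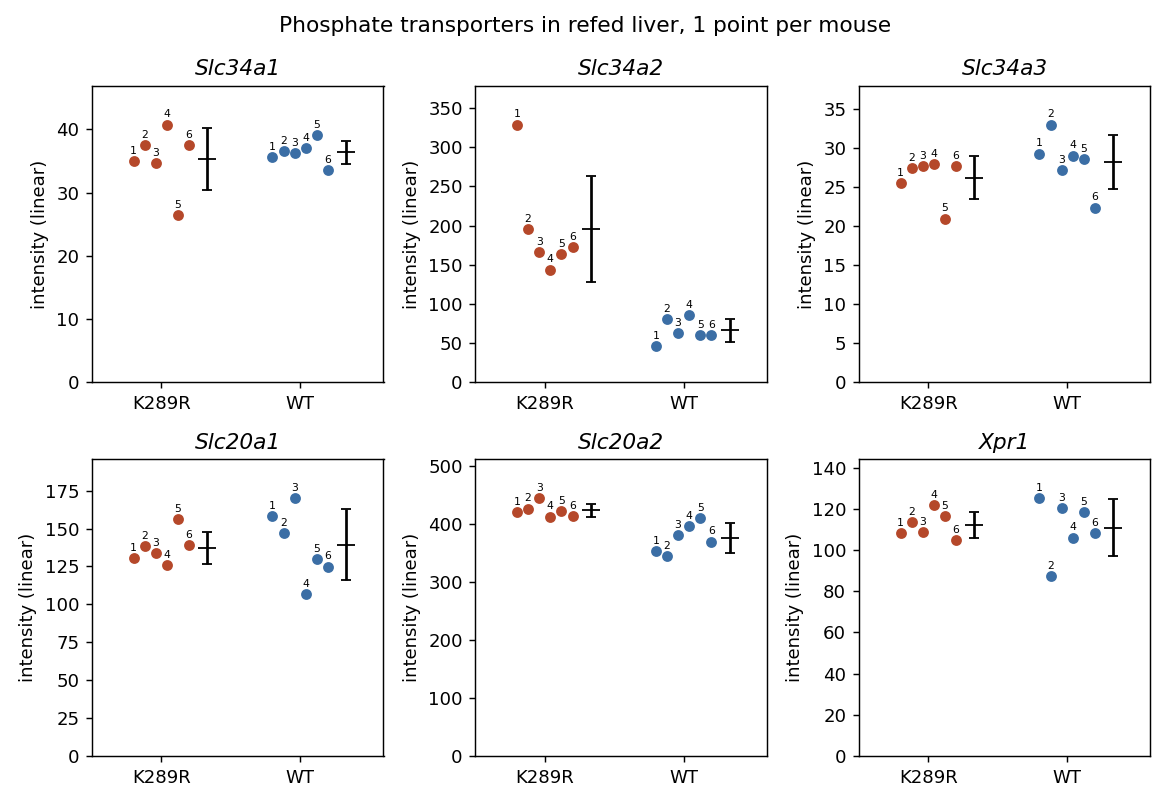
Linear probe-set intensities of the 6 phosphate transporters, 1 panel for each gene, with K289R left of WT; each point is 1 mouse, numbered within its group, and the black bar is the mean with its SD (n = 6). Slc34a2 lies between 144 and 329 in K289R and between 46.6 and 86.2 in WT, and the other panels show overlapping or nearly touching groups.

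Array K289R 1 had the highest Slc34a2 level and was far from the next, 195 on K289R 2. Acinar markers summed to 7122 on K289R 1 and to 11252 on K289R 3, where Slc34a2 measured 329 and 166, and their part in the Slc34a2 values was not tested. Without K289R 1 and 3, Slc34a2 measured 169 ± 21.3 in K289R (n = 4) and 66.2 ± 14.7 in WT (n = 6), a 2.59-fold difference. Without arrays 1 and 3 of both groups it measured 169 ± 21.3 in K289R and 71.9 ± 13.6 in WT (SD, n = 4 each), or 2.37-fold higher in K289R. Array K289R 4, which stays in both comparisons, had the highest mean log2 of acute phase genes among K289R, 7.62, against 6.30 to 7.27 on the other 5.

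Cell types known to express Slc34a2 outside hepatocytes were checked through their markers. Cholangiocyte markers, 8 of which were measured, summed to 306 to 408 in K289R and 315 to 358 in WT, and none of them passed. None of the 7 alveolar type 2 markers other than Abca3 passed, and their log2 differences ran from -0.20 (Lamp3) to 0.06 (Sftpd). The surfactant genes Sftpc and Sftpb measured 7.31 to 10.5 and 25.8 to 31.1 in K289R, against 8.07 to 12.3 and 28.9 to 35.2 in WT. Abca3, the lipid transporter of lamellar bodies, passed, and it fell to 144 to 306 in K289R, against 279 to 384 in WT (log2 difference -0.83, limma adjusted p = 0.0452). The 7 markers together summed to 420 and 417 on K289R 1 and 3, the arrays with high acinar markers. They summed to 271 to 283 on the other 4 K289R arrays and 418 to 532 in WT. Abca3 made up most of each sum, so the low sums came from those 4 K289R arrays. The 8 enterocyte markers summed to 1121 to 1424 in K289R and 1206 to 1446 in WT, and none passed. Anpep and Fabp2 made up most of each sum. Lct, Alpi, Slc5a1, Vil1, Cdx2 and Sis measured at most 29.3 on any array, so the sums say little of them. In bulk liver, fewer cells of a type and less RNA per cell cannot be told apart.

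**Figure D2:**
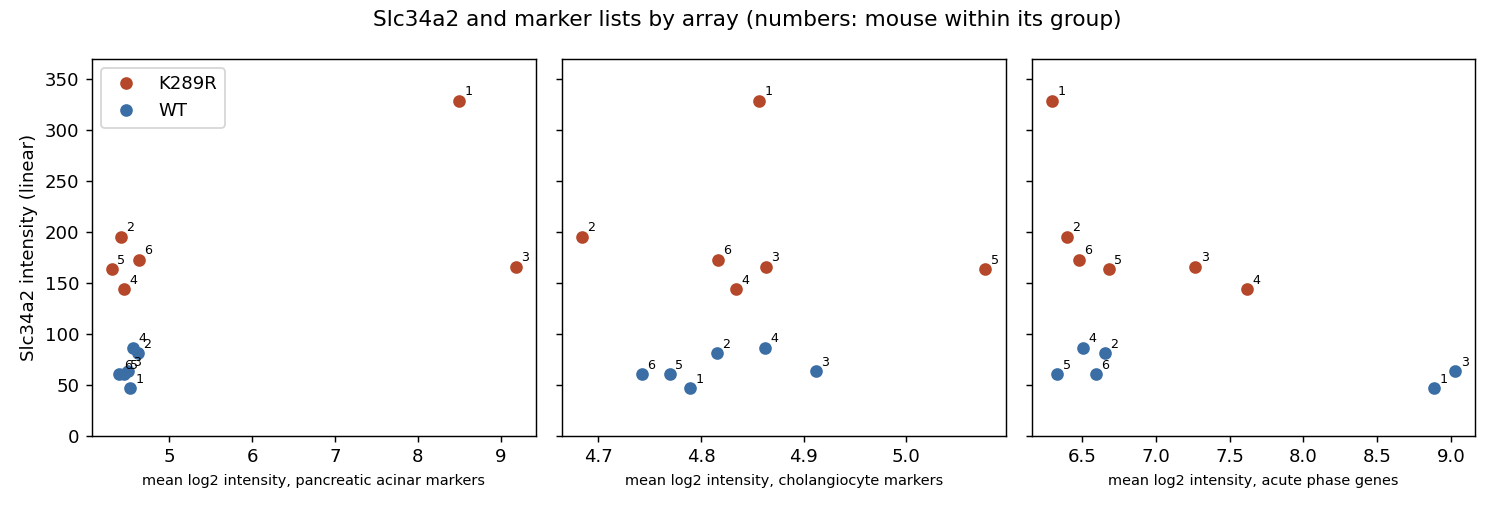
Slc34a2 intensity (vertical axis, linear) against the mean log2 intensity of pancreatic acinar markers, cholangiocyte markers and acute phase genes (horizontal axes), with 1 point for each array, K289R in red and WT in blue. K289R 1 and K289R 3 stand to the right in the acinar panel at Slc34a2 levels of 329 and 166. The vertical values are the same in all 3 panels, with every K289R point above every WT point, a difference for which the gene was chosen.

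The other SLC34 transporters were dim and close between the genotypes. Slc34a1, the main phosphate importer of the renal proximal tubule, had a lowest, median and highest intensity of 26.5, 36.3 and 40.8 in K289R and 33.6, 36.4 and 39.1 in WT. Slc34a3, its electroneutral relative, had 21.0, 27.6 and 28.0 in K289R and 22.4, 28.8 and 33.1 in WT. These levels lay near the array medians, and the groups overlapped for both genes. The log2 differences were -0.05 (95% interval -0.24 to 0.14) for Slc34a1 and -0.10 (-0.30 to 0.09) for Slc34a3, and neither passed in the limma fit over all genes (adjusted p = 0.843 and 0.673). For both genes the lowest K289R value came from array K289R 5. The 7 kidney proximal tubule markers summed to 149 to 177 in K289R and 152 to 169 in WT.

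Of the SLC20 importers, Slc20a2 showed a small offset and Slc20a1 none that could be told from the spread. Slc20a2 had a lowest, median and highest intensity of 412, 421 and 444 in K289R, against 344, 375 and 410 in WT. The groups did not overlap, with the highest WT mouse (array 5) just under the lowest K289R mouse (array 4). Its log2 difference was 0.17 (95% interval 0.04 to 0.30), which did not pass over all genes (limma adjusted p = 0.269). Groups that do not overlap with K289R higher were found for 0.853% of all genes. Slc20a1 had 126, 136 and 156 in K289R and 107, 138 and 170 in WT, so the WT range enclosed all K289R mice. Its log2 difference was -0.01 (95% interval -0.22 to 0.20, limma adjusted p = 0.980), and its sign turned under several settings.

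Xpr1, the phosphate exporter, measured 105, 111 and 122 (lowest, median, highest) in K289R and 87.4, 113 and 125 in WT. The WT mice again enclosed the K289R mice, and the log2 difference of 0.02 (95% interval -0.15 to 0.20) did not pass (limma adjusted p = 0.930). Its sign turned with quantile normalization and without array WT 2. The intervals of Slc34a1, Slc34a3, Slc20a1, Slc20a2 and Xpr1 had upper bounds of at most 0.304 on the log2 scale. A rise of the size measured for Slc34a2 lies outside each of them, but Slc34a2 was chosen for its difference, which favoured this contrast.

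Over all genes, 0.572% were called at a Benjamini-Hochberg adjusted p under 0.05 in the limma fit (0.481% higher and 0.0903% lower). Slc34a2 was the 1 of the 6 transporters among them, which the choice of the set fixed, so nothing is read from that count. Slc34a2 and Slc20a2 had groups that did not overlap, both with K289R higher. For Slc34a2 the choice by its difference favoured this, so nothing is read from its part in the count. Over all genes, groups did not overlap in 1.24% in either direction, 0.853% with K289R higher and 0.391% with K289R lower. The median log2 difference of the 6 genes was 0.01, beside -0.01 over all 19938 genes. By log2 difference Slc34a2 ranked number 9 among the 96 genes called higher in K289R and number 1 among 350 solute carrier genes. Its choice by this same difference favoured high ranks, so nothing is read from them.

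Mice of the same genotype also differed in Slc34a2. Its residual SD within groups was 0.38 on the log2 scale, larger than in 98.5% of genes, where the median gene had 0.15. The SD was 0.42 among K289R mice and 0.32 among WT mice. Without array K289R 1, the SD of the other 5 K289R mice was 0.16, so the wide K289R spread rested on that array. Slc20a2 was the opposite case: its residual SD was 0.07, at percentile 2.93 of all genes. Slc34a1, Slc34a3, Slc20a1 and Xpr1 lay between percentiles 47.3 and 77.3.

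Genes with the profile most like that of Slc34a2 over the log2 values of all 12 arrays were found by Pearson correlation, as a description of chosen genes. They were Med12l (r = 0.97), a gene related to a Mediator subunit, the sorting protein Pacs2 (0.95), Fgf11 (0.93), Mmd2 (0.91), Osbpl3 (0.91), the endothelial lipase Lipg (0.91), Serpinb12 (0.91), Gldn (0.91), Ctse (0.90) and the aldehyde dehydrogenase Aldh1b1 (0.89). All 10 had higher means in K289R, and 9 of them were called, so the shared step between genotypes enters these values. Med12l measured 39.9 to 52.6 in K289R and 28.8 to 34.8 in WT, and K289R 1 had its highest value too. With each group's mean taken off, Med12l kept r = 0.86 and Pacs2 0.72, whereas Osbpl3 had 0.21 and Ctse -0.09. The order of Pacs2 and Osbpl3 rested on array K289R 1: without it the values were 0.68 for Med12l, 0.47 for Pacs2, 0.63 for Osbpl3 and -0.61 for Ctse. Med12l stayed the highest and Ctse the lowest of these genes. The genes most alike after that step were Clvs2 (0.88), Phgdh (0.88), Med12l, Vegfa (0.86), Slc4a1 (0.85) and Efcab8 (0.85). Clvs2 (10.3 to 17.4 over all 12 arrays) and Efcab8 (10.7 to 14.5) lay under the array medians. So did Serpinb12 (3.56 to 4.80) of the first 10 genes. Phgdh, the enzyme that starts serine synthesis, had r = 0.93 without array K289R 1, where Clvs2 had 0.81, Vegfa 0.79, Slc4a1 0.755 and Efcab8 0.69. The log2 difference of Phgdh between the genotypes was 0.02. Of the first 10 genes, 5 were again among the 10 most alike when K289R 1 was left out. None of the other 5 phosphate transporters was on either list. Over all 12 arrays Slc20a2 had r = 0.74, and the other 4 had r between -0.24 and -0.14.

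Among 14 measured carriers of phosphate or organic phosphate outside the set, Slc17a1 and Slc17a4 rose in K289R and 12 did not pass. Both belong to the SLC17 family, first described as type I sodium-phosphate cotransporters and also known to carry organic anions such as urate. Slc17a1 had a lowest, median and highest intensity of 79.5, 86.2 and 96.1 in K289R and 50.9, 58.8 and 71.8 in WT. All 6 K289R mice were above all 6 WT mice. It rose 1.44-fold (log2 difference 0.53, SE 0.08, limma adjusted p = 0.00530). Slc17a4 had 303, 333 and 428 in K289R and 197, 240 and 304 in WT, so the lowest K289R mouse fell just under the highest WT mouse. It rose 1.44-fold (log2 difference 0.53, SE 0.11, limma adjusted p = 0.0295), a call that did not pass in 8 of 12 repeats with a single array removed, nor without K289R 1 and 3 (limma adjusted p = 0.142).

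The mouse genes Slc17a2, Slc17a3, Slc17a1 and Slc17a4 stand next to each other in this order on chromosome 13 in RefSeq. The pair that rose is at the end of the row. Slc17a2 measured 277 to 414 in K289R and 231 to 397 in WT (log2 difference 0.14, limma adjusted p = 0.705). Slc17a3 measured 427 to 539 in K289R and 460 to 541 in WT (log2 difference -0.01, limma adjusted p = 0.971). The genes on either side of the row had log2 differences of 0.05 (Trim38) and -0.03 (H2bc1). No test was made of the differences between these neighbours.

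**Figure D3:**
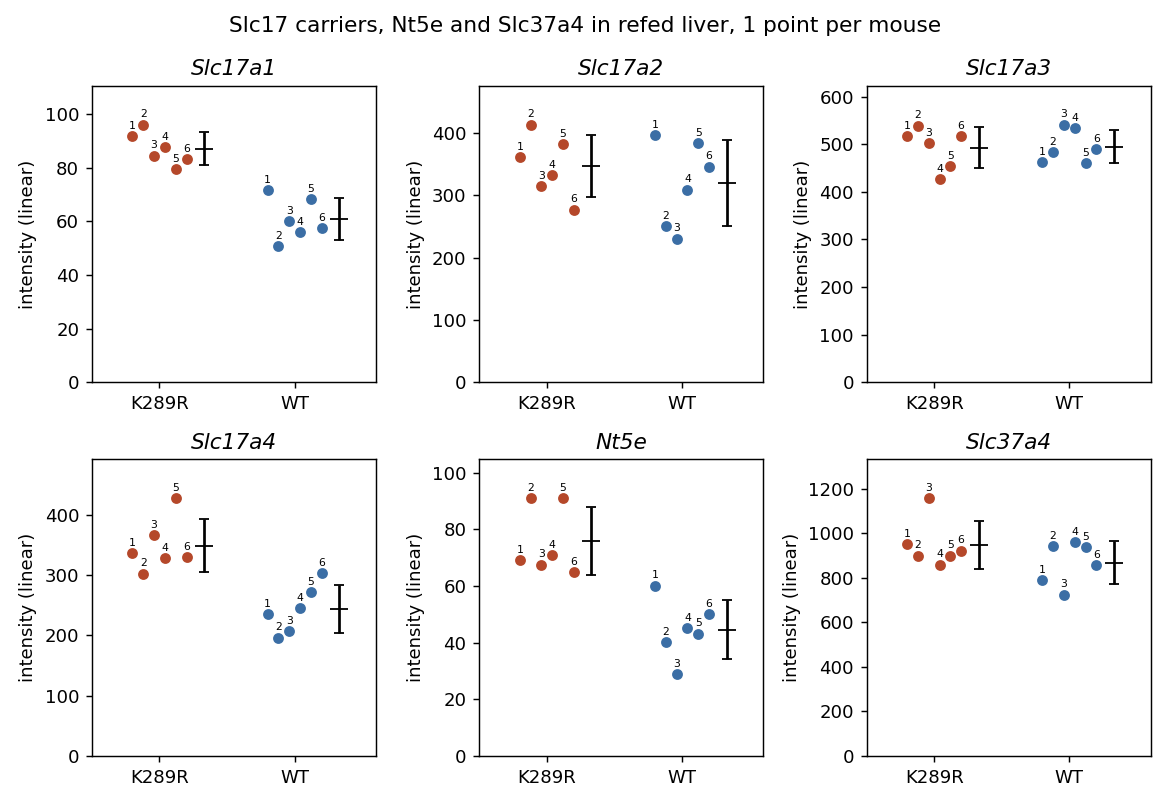
Linear intensities of the 4 SLC17 carriers, of Nt5e and of Slc37a4, with K289R left of WT, 1 numbered point for each mouse and a bar for the mean with its SD (n = 6). Slc17a1 and Nt5e show no overlap between the groups, Slc17a4 overlaps by a single mouse on each side, and Slc17a2, Slc17a3 and Slc37a4 overlap widely.

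Among carriers of intracellular membranes, none passed the test. Slc25a3, which brings phosphate into mitochondria for ATP synthesis, measured 1137 to 1323 in K289R and 1215 to 1304 in WT (log2 difference -0.04, limma adjusted p = 0.803). Slc37a4 exchanges glucose 6-phosphate for phosphate across the endoplasmic reticulum membrane. It measured 859 to 1158 in K289R and 724 to 961 in WT (log2 difference 0.13, limma adjusted p = 0.575). For the 12 members that did not pass, the log2 differences ran from -0.27 (Slc37a1) to 0.18 (Slc25a24). The median over all 14 carriers was 0.06, and 14.3% were called, beside 0.572% of all genes. This list was chosen with earlier results of these data known, so nothing is read from its share.

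Of 12 measured phosphatases and genes of pyrophosphate metabolism, Nt5e rose and 11 did not pass, so that 8.33% were called beside 0.572% of all genes. This share is 1 gene of a list chosen with earlier results of these data known, so nothing is read from it. Nt5e encodes the surface enzyme CD73, which splits AMP into adenosine and phosphate. Its lowest, median and highest intensities were 65.0, 70.2 and 91.1 in K289R and 28.9, 44.2 and 60.2 in WT. The groups did not overlap, and the rise was 1.72-fold (log2 difference 0.78, SE 0.14, limma adjusted p = 0.0133). The call did not pass when all 35556 rows of the table were tested (limma adjusted p = 0.0685). The other members had log2 differences between -0.43 (Phospho1, a phosphatase of mineralizing tissue) and 0.19 (the lysosomal acid phosphatase Acp2). Over the 12 genes the median was 0.07.

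**Figure D4:**
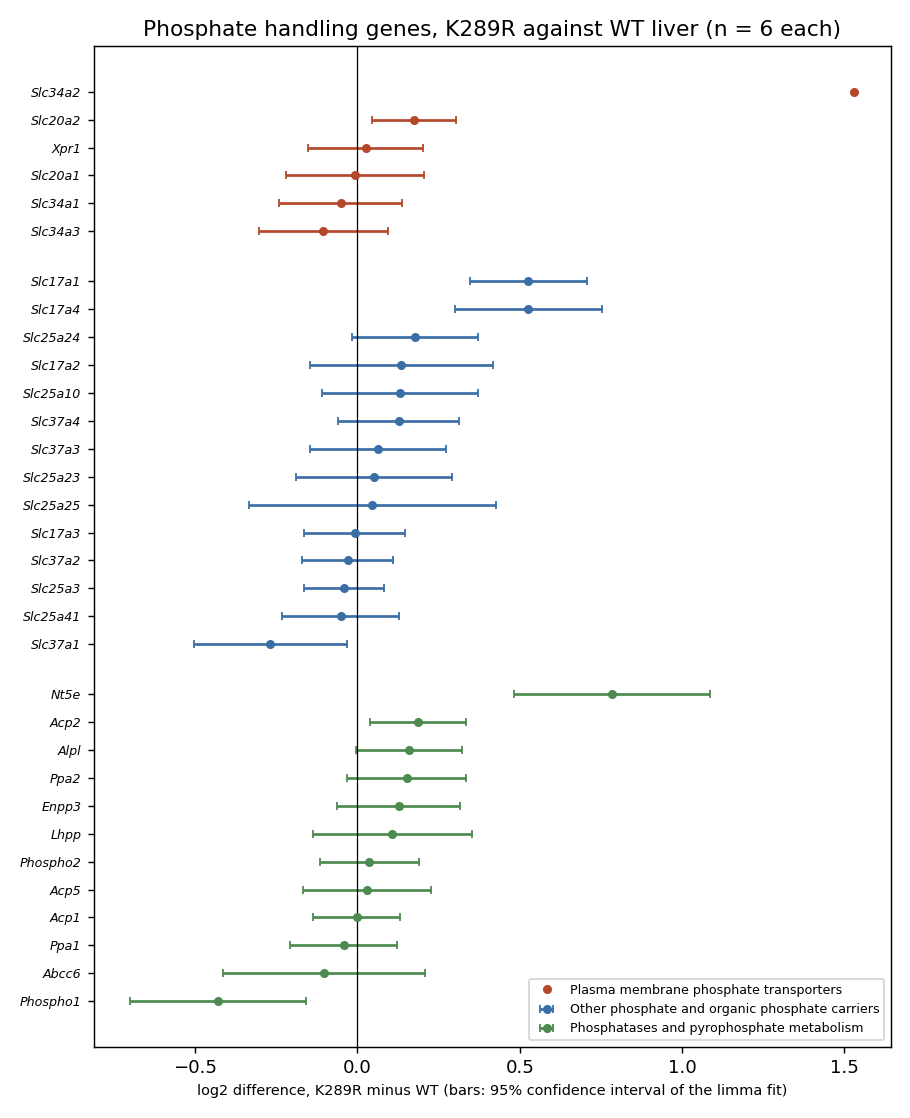
Log2 difference between K289R and WT (horizontal axis, K289R minus WT) for the 6 transporters, 14 other carriers and 12 phosphatase and pyrophosphate genes; bars are 95% confidence intervals of the limma fit, and Slc34a2, chosen for its difference, is drawn without one. Slc34a2 stands at 1.53, Nt5e at 0.78 and Slc17a1 and Slc17a4 at 0.53, and the other points lie between -0.43 and 0.19.

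In the list for the hormone system of phosphate, no gene was called. This list holds the phosphate-lowering hormone FGF23, its coreceptor Klotho and receptors, parathyroid hormone and its receptor, and vitamin D genes. None of the 20 measured members passed, beside 0.572% of all genes, so nothing is read from that count. The median log2 difference was -0.04. Pth, Phex, Dmp1, Mepe, Stc1, Vdr, Sfrp4, Galnt3, Stc2, Kl and Cyp27b1 lay under the array medians on every array. A change in these dim genes could be missed. The members with the smallest p were the receptor Fgfr3 and Fgf23. Fgfr3 measured 63.3 to 82.5 in K289R and 80.0 to 91.2 in WT (log2 difference -0.21, limma adjusted p = 0.262). Fgf23, made mainly in bone, measured 25.2 to 30.7 in K289R and 27.7 to 39.4 in WT, near the array medians (log2 difference -0.15, limma adjusted p = 0.481).

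Nor did any of the 19 measured partners and regulators of phosphate transporters pass. With 0.572% of all genes called, nothing is read from this count. The list contains PDZ proteins that hold SLC34 carriers at the membrane, kinases, and enzymes of inositol pyrophosphates, which bind the SPX domain of XPR1. Its median log2 difference was 0.04. Smallest p belonged to the antioxidant regulator Nfe2l2, which measured 367 to 492 in K289R and 285 to 391 in WT (log2 difference 0.33, limma adjusted p = 0.111). The immediate early gene Egr1 measured 48.7 to 73.7 in K289R and 68.5 to 336 in WT, where 336 came from array WT 1 (log2 difference -1.01, limma adjusted p = 0.122). Without WT 1 Egr1 passed, with a log2 difference of -0.71 (limma adjusted p = 0.0324). Ip6k2, an inositol hexakisphosphate kinase singled out after its values were seen, measured 63.4 to 127 in K289R and 50.2 to 94.8 in WT. Its log2 difference was 0.60 (limma adjusted p = 0.166), and without K289R 1 it was 0.74 and passed (limma adjusted p = 0.0323).

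Over the 350 measured solute carrier genes, 9 were called higher in K289R and 1 lower, or 2.86%, beside 0.572% of all genes. This count includes Slc17a1, Slc17a4 and also Slc34a2, which was chosen for its difference. The other carriers that rose were Slc35f2 (1.86-fold, limma adjusted p = 0.000386, with WT levels of 12.97 to 18.5 under the array medians), Slc15a5 (1.90-fold, adjusted p = 0.00175), Slc44a3 (1.53-fold, adjusted p = 0.00519), Slc66a2 (1.32-fold, adjusted p = 0.00602), Slc35g1 (1.38-fold) and the peptide and histidine transporter Slc15a4 (1.25-fold). Slc35g1 and Slc15a4 had the same limma adjusted p = 0.0493, and each lost its call in 10 of 12 repeats with a single array removed. Slc66a2 did not pass without K289R 1 and 3 (limma adjusted p = 0.0544). The zinc importer Slc39a4 was the carrier that fell, with 86.0 to 142 in K289R and 140 to 229 in WT (log2 difference -0.80, limma adjusted p = 0.00548). Without K289R 1 and 3, 6 solute carriers were called. Slc15a5, a relative of peptide transporters, came after Slc34a2 in size, with 106, 120 and 127 (lowest, median, highest) in K289R and 41.2, 65.6 and 80.3 in WT.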

How the data were processed

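The deposited table held linear intensities, 1 per probe set and array, for 35556 rows, as judged from their range. The authors made these intensities with Affymetrix Expression Console, per the submitters' processing notes. The sources used here do not state its version, summarization, background correction or normalization. Array medians were 26.8 to 29.2 and upper quartiles 78.6 to 85.0. The number of arrays limits the precision. Of the rows, 21789 had 1 gene symbol, 1621 several and 12146 none listed; the first kind gave 19938 genes (21698 rows matched RefSeq by gene ID), with the probe set of highest mean log2 where a gene had several.

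Log2 values without a pseudocount were compared with limma 3.58.1 in R 4.3.3 (lmFit, eBayes, no covariates, all 12 arrays), two-sided, with Benjamini-Hochberg adjustment over 19938 genes and a threshold of 0.05. Fold changes come from mean log2 values, and means ± SD from linear intensities.

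The members and gene lists were chosen with earlier results of these data known. Named were the 6 members, every listed gene that passed, otherwise the 2 with the smallest p in a list, the solute carriers that passed, and the genes most correlated with Slc34a2 (10 over all arrays, 6 with group means removed, passing over predicted genes, microRNAs and snoRNAs by symbol and RefSeq type, and olfactory and vomeronasal receptors). Slc17a2, Slc17a3, Slc25a3, Slc37a4, Ip6k2, the neighbours of the SLC17 genes and the ends of ranges were named after their values were seen.

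Alternatives were other scalings, array weights, another variance model, a pseudocount, other choices of rows and probe sets, the replicate number as a block, and leaving out single arrays or arrays 1 and 3. The fit was tested on simulated data with known changes. Protein sequences were not used here. Figures were drawn with matplotlib 3.10.9.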

Additional observations from a re-analysis of the deposited data

Results flagged for a closer look

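For the named genes of the lists, 40 sets of 6 intensities were checked for a sample far from the others, and 6 had an extreme array whose gap to its neighbour was over 0.625 of the group's range. Chance alone gives this for about 1 group in 20. Slc34a2 on K289R 1, the highest of K289R, had a gap of 0.723 of the range, or 0.631 on the log2 scale. Slc34a3 on K289R 5, the lowest of K289R, had 0.656. Fgf23 on WT 2, the highest of WT, had 0.649, and on the log2 scale 0.607. Egr1 on WT 1, the highest of WT, had 0.799. Slc15a4 on K289R 5, the highest of K289R, had 0.726, and Slc66a2 on K289R 2, the lowest of K289R, had 0.650. Array K289R 5 had the lowest median (26.8) and the highest upper quartile (85.0) of the 12 arrays; the part of this in the Slc34a3 and Slc15a4 values was not tested.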

How the results depend on the processing

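The Slc34a2 log2 difference stayed between 1.24 and 1.61 over 24 other settings, lowest without arrays 1 and 3 of both groups. Slc17a1 passed in all 24 (log2 difference 0.43 to 0.59), Nt5e in 23 and Slc17a4 in 12, with an adjusted p of up to 0.357. Of the other carriers, 2 were called with all arrays and 1 to 2 with 1 array left out; 1 was called over all rows of the table, without K289R 1 and 3, without WT 1 and 3, and without all 4. Over all rows, 0 of the phosphatase list passed. In the list of partners, 0 to 1 passed with 1 array left out. Without K289R 1 and 3, 6 solute carriers and 75 genes in all passed, and 65 genes without all 4 arrays, against 114 with every array. The 10 genes most like Slc34a2 kept 5 to 9 members with 1 array left out, 5 without K289R 1 and 3, 4 without WT 1 and 3 and 2 without all 4. The sign of Slc20a1 turned with equal array medians (0.029), array weights (0.024), without K289R 1 and 3 (0.018), without WT 1 and 3 (0.12) and without all 4 (0.14), and lay between -0.081 and 0.053 with 1 array left out. Slc34a1 lay between -0.096 and 0.029 and Xpr1 between -0.042 and 0.062 there, and quantile normalization gave Xpr1 -0.0093. None of these passed, and the causes were not tested. With the replicate number as a block, 1 transporter, 2 other carriers, 1 phosphatase gene, 10 solute carriers and 111 genes in all passed; Slc15a4 did not (adjusted p = 0.116), which says nothing of a weaker effect because the numbers pair no mice: same-numbered arrays of the genotypes deviated together with r from -0.231 to 0.233, and 1 of 6 correlated best with its own number. Other calls named here kept their side of the threshold under the block. The filter on dim genes removed Slc34a3, Fgf23 and Slc35f2, which have no value under it.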
